A study of Rattus norvegicus with 10 samples.

Results

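The genes Ybx2, Ddx25, Papolb, Paip2, Paip2b, Pabpc1, Tarbp2, Celf1 and Boll, which encode RNA-binding and poly(A) factors that take part in delayed translation in spermatids, were looked up by gene name in 10 libraries of rat round spermatids. Of these 9 names, 7 had a row among the 32545 genes of the deposited files, namely Ybx2, Ddx25, Pabpc1, Paip2, Paip2b, Tarbp2 and Celf1. No row carried the names Papolb or Boll, so these 2 genes were not analysed here. The study compared aged Brown Norway rats, 18 to 20 months old, with young ones of 4 to 6 months (5 libraries each). All animals were wild type, per the labels, and were kept with free access to food and water. Round spermatids were enriched by STA-PUT, which separates cells of a testis suspension by how fast they settle, and no further purification is described. Nothing in the labels ties each library to a separate animal; all p-values therefore measure the spread between libraries, which may be technical.

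Round spermatids are haploid cells that follow meiosis. They make messenger RNAs for protamines and other sperm proteins well before these proteins appear, because transcription stops when the chromatin is packed. The messages are held as particles with RNA-binding proteins such as YBX2, and shortening of the poly(A) tail goes with their later translation. Poly(A)-binding protein favours translation, and the PAIP2 proteins hold it in check.

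All 7 genes were measured above the limit for testing, a mean FPKM of 1 (fragments per kilobase of gene, scaled by a factor of each library close to its depth). Their levels spanned a 226-fold range. None passed the test between aged and young spermatids (limma, adjusted p of 0.319 to 0.877). Ybx2, the storage protein, and Pabpc1, the poly(A)-binding protein, ranked 16th and 18th of 12985 tested genes by mean FPKM, and their aged means differed from the young ones by 1.62% and -2.24%. Celf1, which binds GU-rich messages, showed the lowest aged level relative to young, at 11.3 ± 0.825 FPKM in aged and 13.5 ± 1.05 FPKM in young libraries (SD, n = 5 each). Its adjusted p was 0.319 in limma.

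Promoter sequences of Ddx25, Paip2 and Paip2b are printed here because Y-box proteins are named for the Y box, a promoter element that holds the letters ATTGG, and because Paip2 and Paip2b are paralogs of very different level. They are RefSeq sequences on the rat build GRCr8, from 250 bases before to 50 after the annotated start, written along the strand of the gene, with each ATTGG, and each CCAAT as its form on the other strand, in capitals. RefSeq entries were matched by symbol for 7 of the 9 named genes (Ddx25, Papolb, Paip2, Paip2b, Tarbp2, Celf1 and Boll).
Ddx25, chr8:42168031-42168330, minus strand: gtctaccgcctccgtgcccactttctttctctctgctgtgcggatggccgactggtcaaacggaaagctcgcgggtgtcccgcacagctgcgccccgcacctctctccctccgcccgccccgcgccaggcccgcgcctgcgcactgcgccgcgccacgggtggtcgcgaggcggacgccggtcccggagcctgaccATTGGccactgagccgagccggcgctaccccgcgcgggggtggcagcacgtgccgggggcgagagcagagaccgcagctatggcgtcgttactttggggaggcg
Paip2, chr18:27475028-27475327, plus strand: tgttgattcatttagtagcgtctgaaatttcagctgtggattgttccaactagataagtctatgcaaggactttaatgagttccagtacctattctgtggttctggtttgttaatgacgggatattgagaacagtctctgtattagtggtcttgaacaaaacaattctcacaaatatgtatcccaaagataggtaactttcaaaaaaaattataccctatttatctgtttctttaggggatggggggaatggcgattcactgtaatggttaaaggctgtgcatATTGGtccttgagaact
Paip2b, chr4:117880957-117881256, minus strand: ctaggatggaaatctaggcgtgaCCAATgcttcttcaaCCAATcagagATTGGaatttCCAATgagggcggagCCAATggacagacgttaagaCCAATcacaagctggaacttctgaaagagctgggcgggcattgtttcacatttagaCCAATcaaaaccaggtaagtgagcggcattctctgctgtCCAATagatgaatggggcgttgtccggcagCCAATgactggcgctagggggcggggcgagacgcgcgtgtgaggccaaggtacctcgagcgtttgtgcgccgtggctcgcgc
The Paip2b promoter held 9 matches, 8 written CCAAT and 1 written ATTGG on the strand of the gene. Only 3 of the 33469 promoters in the RefSeq table, Paip2b among them, held 9 or more. The Paip2 and Ddx25 promoters each held 1 match, written ATTGG, and the Paip2 match lies after the annotated start. A match on either strand was present in 37.5% of all promoters of this length. Papolb also held 1 match, and Tarbp2, Celf1 and Boll held none. GC content was 37.0% in the Paip2 promoter, 54.3% in that of Paip2b and 72.7% in that of Ddx25, against a median of 51.7% over all promoters. These matches are descriptions of letters, and no binding was measured.

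The libraries held 15992576 to 18203223 fragments in the aged group and 14488222 to 17401744 fragments in the young group, recovered as whole numbers from the FPKM values. Markers of round spermatids summed to 1289 to 1492 FPKM in aged and 1105 to 1415 FPKM in young libraries, all 9 markers being detected. All 9 had a higher mean log2 level in aged libraries, with a median log2 difference of 0.09. Young replicate 1 alone held the sum of 1105 FPKM, and the remaining young libraries, at 1293 to 1415 FPKM, lay within the aged range. The same library held the highest spermatocyte sum, 266 FPKM. The 7 genes listed as elongating spermatid markers, such as Prm1, summed to 25273 to 33180 FPKM in aged and 25656 to 41605 FPKM in young libraries, all 7 lower, with a median of -0.14. All 7 are also among the stored messages below, which round spermatids make themselves, so their level does not separate the 2 stages. Of the markers of somatic testis cells, most had a higher mean in aged libraries, although 0 passed the adjusted threshold. The 7 peritubular markers summed to 93.9 to 242 FPKM in aged and 57.8 to 87.2 FPKM in young libraries, all 7 higher, and the 7 Leydig cell markers to 10.9 to 123 FPKM in aged and 5.11 to 8.16 FPKM in young libraries, all 3 tested ones higher. The 8 Sertoli cell markers found summed to 28.6 to 121 FPKM in aged and 22.6 to 29.0 FPKM in young libraries, all 3 tested ones higher, and the 8 macrophage markers to 12.8 to 76.9 FPKM in aged and 9.44 to 18.7 FPKM in young libraries, 6 of 7 tested ones higher. Aged replicate 2 held the highest sum of each of these 4 lists. The 9 spermatocyte markers summed to 163 to 228 FPKM in aged and 189 to 266 FPKM in young libraries, 7 of 9 lower, and the 7 spermatogonial markers to 43.1 to 49.1 FPKM in aged and 39.5 to 58.8 FPKM in young libraries, 2 of 4 tested ones higher. No listed marker was at 0 in every library. The part of any of these lists in the results below was not tested, and in bulk libraries fewer cells of a type and less RNA per cell cannot be told apart.

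Of 12985 tested genes, 0 passed an adjusted p of 0.05 in limma, a background of 0%, and the smallest adjusted p was 0.280. Without adjustment, 1544 genes had p under 0.05, a background of 11.9% (5.54% higher and 6.35% lower in aged libraries), and limma's voom on recovered fragments gave 1632 such genes and also 0 past the threshold. Of the 1544, 46.6% were higher in aged libraries, and after scaling to TPM 61.1% of 1393 were. Among the 7 translational control genes 0 passed and 1, Celf1, had an unadjusted p under 0.05, on the lower side. Of the 7, 5 had a lower and 2 a higher mean in aged libraries on the log2 scale, beside 54.5% of all tested genes on the lower side. Their median difference on that scale was -0.04, against -0.02 over all tested genes. The aged and young ranges overlapped for all 7, against 2.6% of all tested genes whose groups did not overlap. With so few genes these counts are a description.

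**Figure D1:**
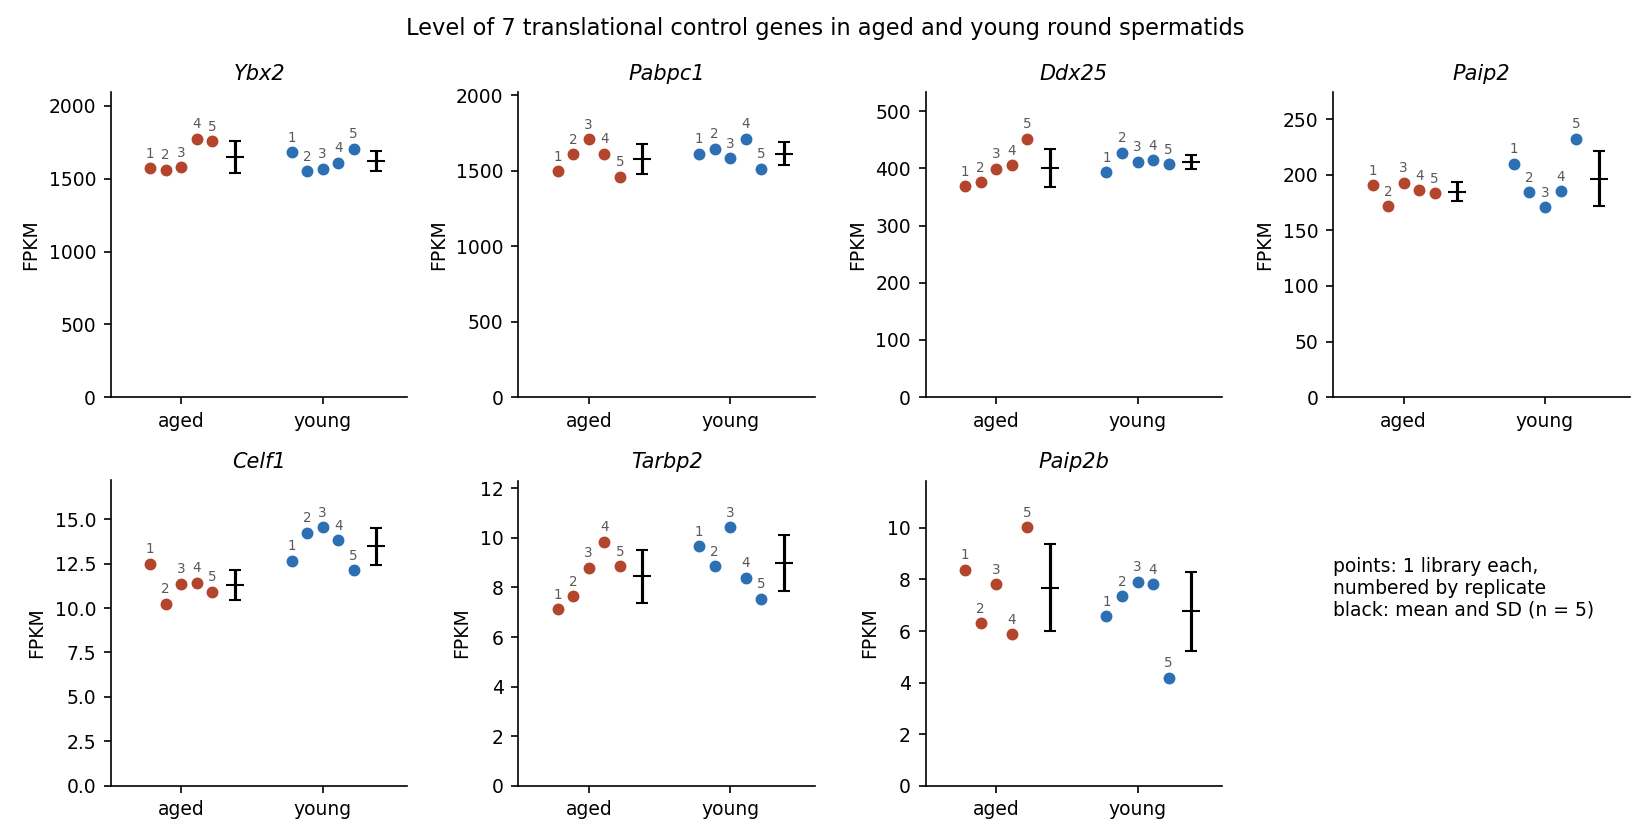
FPKM (vertical axis, from 0) of the 7 genes in 5 aged and 5 young libraries, 1 point per library numbered by replicate, with the mean and SD in black. The aged and young points overlap in every panel, and for Celf1 4 aged points lie below all young points.

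Ybx2 encodes the germ cell Y-box protein that coats and stores messenger RNA, a role shown in the mouse. Its gene (ENSRNOG00000017117) lies on chromosome 10, 56546710 to 56551863, plus strand, with a counted length of 1150 bases; positions here and for the other genes are those of the files, and no source used here names their build. Ybx2 stood at 1574, 1561, 1578, 1776 and 1757 FPKM in aged replicates 1 to 5, against 1681, 1550.4, 1568, 1610.5 and 1705 FPKM in young replicates 1 to 5. Aged replicates 4 and 5 lay above every young library and the other aged libraries lay among the young ones. The means were 1649 ± 107 FPKM in aged and 1623 ± 68.1 FPKM in young libraries (SD, n = 5 each). The log2 difference was 0.02 (SE 0.05, limma adjusted p = 0.877), with a 95% interval from -6.38% to 10.1% in aged relative to young spermatids. The direction was not stable: without aged replicate 4 or 5 the difference was -0.01 and -0.002.

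The other Y-box genes were also abundant. Ybx1, the widely expressed member of the family, averaged 840.4 ± 38.8 FPKM in aged and 810.2 ± 24.8 FPKM in young libraries, and Ybx3, which also binds stored messages in the mouse testis, 1094 ± 70.9 FPKM in aged and 1169.7 ± 57.2 FPKM in young libraries (SD, n = 5 each). Ybx2 made up 46.0% ± 1.08 of the summed FPKM of these 3 genes in aged and 45.0% ± 1.75 in young libraries. The ratio of Ybx2 to Ybx1 was 1.96 ± 0.0873 in aged and 2.01 ± 0.141 in young libraries (exact permutation p = 0.603, two-sided). Reads of Ybx1 can be shared with its processed copies, so its level is less certain.

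Ddx25 encodes a DEAD-box helicase of the testis that exports messages from the nucleus and takes part in their translation, as shown in the mouse. The gene (ENSRNOG00000012260) lies on chromosome 8, 36744667 to 36760742, minus strand. Ddx25 stood at 369, 376, 399.8, 405 and 452 FPKM in aged replicates 1 to 5, against 393, 428, 412, 414 and 407 FPKM in young replicates 1 to 5. Aged replicates 1 and 2 lay below every young library and aged replicate 5 above every one, so that the aged range enclosed the young one. The means were 400.3 ± 32.8 FPKM in aged and 411 ± 12.5 FPKM in young libraries (SD, n = 5 each), a log2 difference of -0.04 (SE 0.05, limma adjusted p = 0.762). The 95% interval ran from -10.6% to 5.73%. Leaving out each library gave -0.09 (without aged replicate 5) to -0.01 (without aged replicate 1). Without aged replicates 1 and 2, which held the most RNA of Leydig cell, Sertoli cell, peritubular and macrophage markers, the log2 difference was 0.03. The part of these cells in the Ddx25 values was not tested.

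Pabpc1 encodes the main cytoplasmic poly(A)-binding protein. Its gene (ENSRNOG00000008639) lies on chromosome 7, 75409581 to 75422268, minus strand. Pabpc1 stood at 1496, 1607, 1707, 1611 and 1460.3 FPKM in aged replicates 1 to 5, against 1612, 1645, 1581, 1712 and 1513 FPKM in young replicates 1 to 5. Aged replicates 1 and 5 were the lowest of the 10 libraries and young replicate 4 the highest. The means were 1576 ± 98.9 FPKM in aged and 1612 ± 73.9 FPKM in young libraries (SD, n = 5 each), a log2 difference of -0.03 (SE 0.05, limma adjusted p = 0.800). The 95% interval ran from -9.96% to 5.98%. Leaving out each library gave log2 differences of -0.06 to -0.01, the ends being without aged replicate 3 and without aged replicate 5. Pabpc1 made up 76.4% ± 1.08 of the summed FPKM of 7 cytoplasmic poly(A)-binding protein genes in aged and 75.8% ± 0.822 in young libraries. Pabpc2 followed at 307 ± 12.3 FPKM in aged and 304 ± 8.23 FPKM in young libraries, then Pabpc6 at 176 ± 19.3 FPKM in aged and 209 ± 28.2 FPKM in young libraries. Pabpc1, Pabpc2 and Pabpc6 resemble each other in sequence, so counting may have split their reads.

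**Figure D2:**
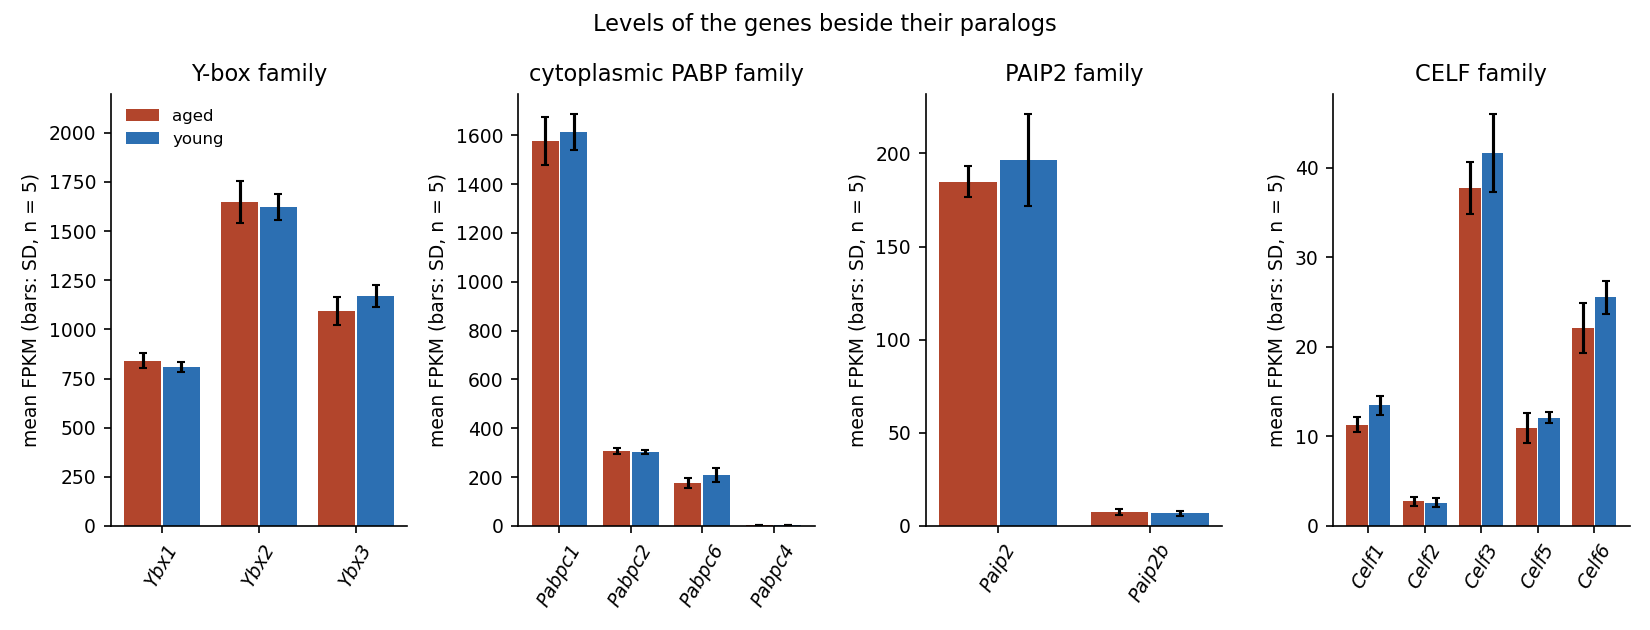
Mean FPKM with SD (n = 5) of the translational control genes beside their paralogs, aged to the left of young, each axis from 0; family members under 1 FPKM are left out. Ybx2, Pabpc1 and Paip2 are the highest of their families, whereas Celf1 stands below Celf3 and Celf6.

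Paip2 encodes an inhibitor that takes poly(A)-binding protein off the message. The gene (ENSRNOG00000019934) lies on chromosome 18, 28409955 to 28415910, plus strand, and overlaps 1902 bases of Slc23a1 on the other strand, which averaged only 0.0797 FPKM. Paip2 stood at 191, 172, 193, 186 and 183 FPKM in aged replicates 1 to 5, against 209.9, 185, 171, 185 and 233 FPKM in young replicates 1 to 5. Young replicates 1 and 5 lay above every aged library, and the remaining young libraries lay within or just below the aged range. The means were 185 ± 8.34 FPKM in aged and 197 ± 24.6 FPKM in young libraries (SD, n = 5 each), a log2 difference of -0.08 (SE 0.08, limma adjusted p = 0.656). The 95% interval ran from -15.8% to 6.25%. The log2 difference was -0.02 without young replicate 5 and -0.13 without young replicate 3.

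Paip2b (ENSRNOG00000014092), the paralog with the same action, lies on chromosome 4, 115487313 to 115516296, minus strand, with a counted length of 649 bases. It was much scarcer, at 8.38, 6.30, 7.82, 5.87 and 10.03 FPKM in aged replicates 1 to 5, against 6.57, 7.36, 7.91, 7.81 and 4.19 FPKM in young replicates 1 to 5. Aged replicates 1 and 5 lay above all young libraries and young replicate 5 lay below all others. The means were 7.68 ± 1.68 FPKM in aged and 6.77 ± 1.53 FPKM in young libraries (SD, n = 5 each), a log2 difference of 0.17 (SE 0.17, limma adjusted p = 0.677). The 95% interval was wide, from -13.2% to 44.8%, and 42 to 106 fragments per library were counted. Its spread within groups on the log2 scale exceeded that of 87.5% of tested genes. Without young replicate 5 the log2 difference was 0.03.

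Ratios taken within a library do not depend on how libraries were scaled. The ratio of Paip2 to its target Pabpc1 was 0.128, 0.107, 0.113, 0.115 and 0.125 in aged replicates 1 to 5, against 0.130, 0.112, 0.108, 0.108 and 0.154 in young replicates 1 to 5. The means were 0.118 ± 0.00873 in aged and 0.122 ± 0.0197 in young libraries (SD, n = 5 each; exact permutation p = 0.706, two-sided). The log2 difference was -0.05 with all libraries and 0.04 without young replicate 5, the highest of the 10. The ratio of Paip2b to Paip2 was 0.0415 ± 0.00873 in aged and 0.0355 ± 0.0112 in young libraries (SD, n = 5 each; exact permutation p = 0.405), a log2 difference of 0.27, which was 0.05 without young replicate 5. The lowest ratio, 0.0180, was that of young replicate 5, where Paip2 was highest and Paip2b lowest. Of 7 ratios planned 5 could be computed, and each had a p of 0.706 after Benjamini-Hochberg adjustment over the 5.

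Tarbp2 encodes a double-stranded RNA-binding protein that partners with Dicer and that, in the mouse, is needed for timely protamine translation. Its gene (ENSRNOG00000042355) lies on chromosome 7, 144121744 to 144126857, plus strand. Tarbp2 stood at 7.11, 7.64, 8.79, 9.85 and 8.87 FPKM in aged replicates 1 to 5, against 9.68, 8.86, 10.4, 8.39 and 7.54 FPKM in young replicates 1 to 5. The lowest library was aged replicate 1 and the highest young replicate 3, with the rest mixed. The means were 8.45 ± 1.08 FPKM in aged and 8.98 ± 1.12 FPKM in young libraries (SD, n = 5 each), a log2 difference of -0.08 (SE 0.10, limma adjusted p = 0.742). The 95% interval of the log2 difference ran from -0.30 to 0.14. Leaving out each library gave -0.13 (without young replicate 5) to -0.03 (without aged replicate 1), and leaving out both aged replicates 1 and 2 gave 0.03. Dicer1 itself was under the limit for testing, at 0.691 ± 0.181 FPKM in aged and 0.680 ± 0.189 FPKM in young libraries. The ratio of Tarbp2 to Dicer1 was 13.2 ± 4.99 in aged and 13.9 ± 3.63 in young libraries (SD, n = 5 each; exact permutation p = 0.690). Without aged replicates 1 and 2 its log2 difference changed to 0.11, against -0.11 with all libraries, and without aged replicate 3 to -0.31. The ratio was 21.8 in aged replicate 3, against 9.37 to 13.1 in the other aged libraries.

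Celf1 encodes a protein that binds GU-rich messages, acts on splicing, decay and translation, and is needed for sperm formation in the mouse. The gene (ENSRNOG00000010379) lies on chromosome 3, 79823945 to 79842082, plus strand, with a counted length of 1998 bases. Celf1 stood at 12.51, 10.3, 11.4, 11.4 and 10.9 FPKM in aged replicates 1 to 5, against 12.7, 14.3, 14.6, 13.8 and 12.1 FPKM in young replicates 1 to 5. Aged replicates 2 to 5 lay below every young library, and only aged replicate 1 reached into the young range, above young replicate 5. The means were 11.3 ± 0.825 FPKM in aged and 13.5 ± 1.05 FPKM in young libraries (SD, n = 5 each), a difference of -16.2%. All 5 aged libraries lay below the young mean. The log2 difference was -0.24 (SE 0.07), with a 95% interval from -23.4% to -5.92%, an unadjusted p of 0.00481 and an adjusted p of 0.319 in limma. By the exact permutation test for this gene alone the two-sided p was 0.0159, where the smallest possible is 0.00794. Of all tested genes 1.38% had a smaller p. Between 336 and 501 fragments per library were counted.

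Aged replicates 1 and 2 held the highest sums of Leydig, Sertoli, peritubular and macrophage markers. Without them the log2 difference in Celf1 was -0.24 (limma unadjusted p = 0.00886, adjusted p = 0.603). The remaining aged libraries still lay above every young one in Leydig (10.9 to 17.6 FPKM) and peritubular sums (93.9 to 113 FPKM). Their Sertoli and macrophage sums overlapped the young ones, and the part of these cells was not tested. Leaving out each library in turn gave log2 differences in Celf1 of -0.27 to -0.20. The unadjusted p values in limma were 0.00212 to 0.0148, and the adjusted ones 0.178 to 0.520. Spermatocyte markers were lower in the same comparison, with a median log2 difference of -0.16 over 9 genes, and their part in the result was not tested. The other CELF genes had aged and young means of 37.8 and 41.6 FPKM for Celf3, 22.1 and 25.5 FPKM for Celf6, 10.9 and 12.1 FPKM for Celf5, and 2.75 and 2.62 FPKM for Celf2. Celf1 held 13.3% ± 0.737 of the summed FPKM of the 6 CELF genes in aged and 14.1% ± 0.859 in young libraries (SD, n = 5 each).

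**Figure D3:**
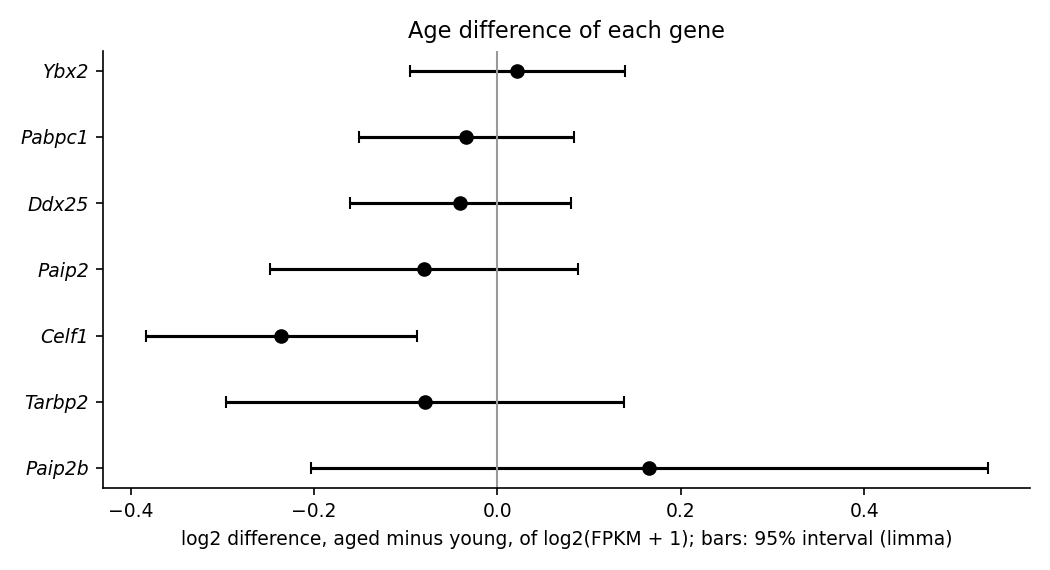
Log2 difference, aged minus young, of log2(FPKM + 1) for the 7 genes (dots) with the 95% interval from limma (bars), ordered from the highest level at the top. The intervals of 6 genes include 0, and that of Celf1 lies between -0.38 and -0.09 before any adjustment.

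The order of levels per length over the 10 libraries was Ybx2, Pabpc1, Ddx25, Paip2, Celf1, Tarbp2 and Paip2b. Ybx2 and Pabpc1 did not differ beyond their spread, as Ybx2 was the higher of the pair in 5 of 10 libraries. Pabpc1 stood 3.23 to 4.28 times above Ddx25 in a library, Ddx25 1.75 to 2.47 times above Paip2, and Paip2 11.7 to 19.2 times above Celf1, with no overlap of ranges. Celf1 was above Tarbp2 in all 10 libraries, although their ranges overlapped between libraries. Tarbp2 was above Paip2b in 3 of 5 aged and 5 of 5 young libraries, so these lowest neighbours were not separated. The order of the means was the same in both age groups.

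Young replicate 5 held the highest or the lowest young value of 6 of the 7 genes, with Ybx2 and Paip2 highest and Paip2b, Pabpc1, Tarbp2 and Celf1 lowest. The next such libraries held 4 or fewer, and the share over all tested genes was not counted. Young replicate 5 also differed from the other young libraries over genes in general. The mean chi-square per gene between 2 young libraries was 13.8 to 18.05 in pairs with young replicate 5. Pairs without it had 4.61 to 14.88, so the 2 ranges overlapped. Young replicate 5 also had the highest summed level of the 7 genes listed as elongating spermatid markers, 41605 FPKM. None of the 7 genes had a library that stood apart from the rest of its group by Dixon's criterion.

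Messages listed as stored in spermatids were abundant in both groups, and their binding by these proteins was not measured. The summed FPKM of 22 stored messages ran from 32684 to 40986 in aged and from 32645 to 50609 in young libraries. Prm1 averaged 10134 ± 1373 FPKM in aged and 12154 ± 3121 FPKM in young libraries (SD, n = 5 each), with a limma adjusted p of 0.552. Of the 22, all tested, 6 had a higher and 16 a lower mean log2 level in aged libraries, against 54.5% of all tested genes lower. Their median log2 difference was -0.08, and it was -0.02 without young replicate 5, -0.05 without aged replicate 2 or young replicate 1, and -0.12 without young replicate 2. None passed, and 1 had an unadjusted p under 0.05, against 11.9% of all tested genes. This was Sod1, an antioxidant enzyme, at 196 ± 18.6 FPKM in aged and 171 ± 14.5 FPKM in young libraries (limma adjusted p = 0.374). The ratio of Ybx2 to the sum of Prm1, Prm2, Tnp1 and Tnp2 was 0.0617, 0.0770, 0.0720, 0.0824 and 0.0925 in aged replicates 1 to 5, against 0.0607, 0.0812, 0.0732, 0.0718 and 0.0548 in young replicates 1 to 5. Its means were 0.0771 ± 0.0115 in aged and 0.0683 ± 0.0105 in young libraries (SD, n = 5 each; exact permutation p = 0.238). The 2 lowest young ratios were those of young replicates 5 and 1, which also held the highest sums of the 7 genes listed as elongating spermatid markers, a list that includes the 4 genes of the ratio.

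**Figure D4:**
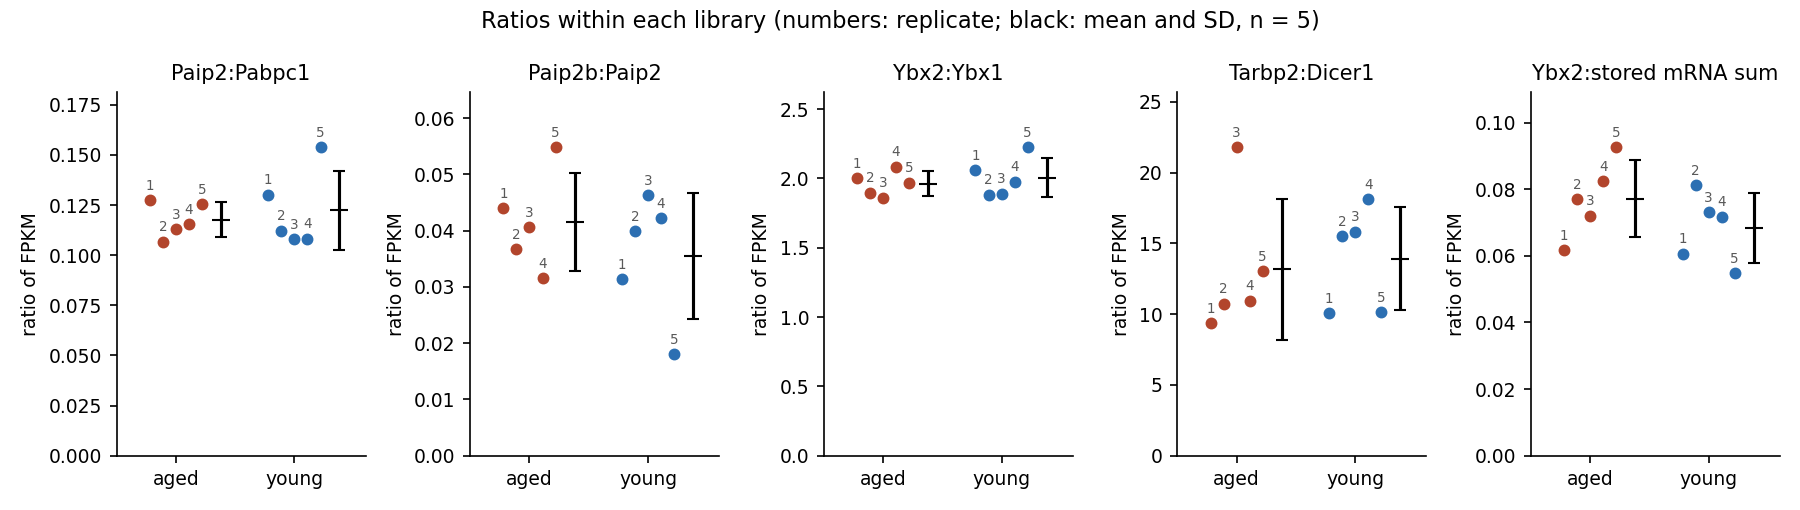
Ratios of FPKM within each library (vertical axes from 0) for 5 pairs, 1 point per library numbered by replicate, with the mean and SD in black and aged to the left of young. The aged and young points overlap in every panel, and young replicate 5 holds the highest Paip2 to Pabpc1 ratio, 0.154, and the lowest Paip2b to Paip2 ratio, 0.0180.

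The wider pathway was read from lists of genes chosen for their roles. Among other regulators that bind messenger RNA, 12 of 42 tested genes had a higher and 30 a lower mean in aged libraries, where 54.5% of all tested genes were lower. None passed, and 4 on each side had an unadjusted p under 0.05, against 5.54% higher and 6.35% lower of all tested genes. Their median log2 difference was -0.07, against -0.02 over all tested genes, and it was -0.04 without aged replicate 1 or without young replicate 1. Lsm14b, of the RNA storage granules that repress translation, had 8.77 ± 1.26 FPKM in aged and 11.9 ± 1.34 FPKM in young libraries, a log2 difference of -0.40 (limma adjusted p = 0.319). Its groups did not overlap, as for 2.6% of all tested genes. Strbp, a double-stranded RNA-binding protein of spermatids, had 13.99 ± 0.653 FPKM in aged and 16.2 ± 0.842 FPKM in young libraries, and Rbm44, a germ cell RNA-binding protein, 158 ± 8.73 FPKM in aged and 173 ± 8.06 FPKM in young libraries. Celf6 had a log2 difference of -0.20. On the higher side, Zfp36 and Zfp36l1, which bind AU-rich messages and promote their decay, had log2 differences of 1.21 and 0.34. Zfp36 reached 38.6 FPKM in aged replicate 2, which held the highest sums of the 4 somatic marker lists, and 5.29 to 12.3 FPKM in the other aged libraries.

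Poly(A) tail factors, the polymerases, binding proteins, cleavage factors and deadenylases, had 17 higher and 25 lower of 42 tested genes. Their median log2 difference was -0.02, and between -0.04 (without aged replicate 4) and -0.01 (without aged replicate 1) when each library was left out. None passed, 2 had an unadjusted p under 0.05 on the higher side and 6 on the lower side. Over all tested genes the shares were 5.54% higher and 6.35% lower. Pabpc6, the poly(A)-binding paralog described above, had a log2 difference of -0.24 (adjusted p = 0.401), and Cnot7, a catalytic subunit of the CCR4-NOT deadenylase, -0.19. Cstf3, of the cleavage complex, had -0.14 and Btg4, which recruits the deadenylase, -0.17. On the higher side, Cnot3, a further CCR4-NOT subunit, had 0.18 and Btg2, a further deadenylase partner, 0.64. The highest Btg2 value was 7.09 FPKM, in aged replicate 2, the remaining aged values being 1.17 to 2.44 FPKM. Papola, the widely expressed poly(A) polymerase, averaged 46.7 ± 1.86 FPKM in aged and 45.5 ± 2.42 FPKM in young libraries (adjusted p = 0.749).

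Translation initiation factors were split evenly, with 25 higher and 22 lower of 47 tested genes and a median log2 difference of 0.003. None passed, and only Eif5, which completes start codon selection, had an unadjusted p under 0.05, against 11.9% of all tested genes. Eif5 had 159.98 ± 6.43 FPKM in aged and 176 ± 8.96 FPKM in young libraries (limma adjusted p = 0.327). Genes of small RNA processing and silencing, in which Tarbp2 takes part, had 6 higher and 8 lower of 14 tested, with a median of -0.02 and 0 that passed. Of these 14, 2 had an unadjusted p under 0.05, both on the lower side, against 6.35% of all tested genes on that side. They were Tsn and Xpo5. Tsn, which encodes the RNA-binding protein translin, had 2.66 ± 0.362 FPKM in aged and 3.50 ± 0.666 FPKM in young libraries without overlap (limma adjusted p = 0.373). It was counted with 48 to 101 fragments per library, and 2.6% of all tested genes did not overlap. Xpo5, which exports microRNA precursors, had 11.5 ± 1.04 FPKM in aged and 13.0 ± 0.856 FPKM in young libraries. Genes of mRNA export, the step at which Ddx25 acts, had 6 higher and 15 lower of 21 tested, against 54.5% of all tested genes lower. Of these 21, 0 passed and 2, both on the lower side, had an unadjusted p under 0.05. Their median was -0.04, and between -0.08 and -0.03 when each library was left out, the ends being without aged replicate 4 and without aged replicate 5. Nxf3, a relative of the export receptor, and Thoc1, of the THO complex, had log2 differences of -0.30 and -0.15, with adjusted p values of 0.327 and 0.401.

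**Figure D5:**
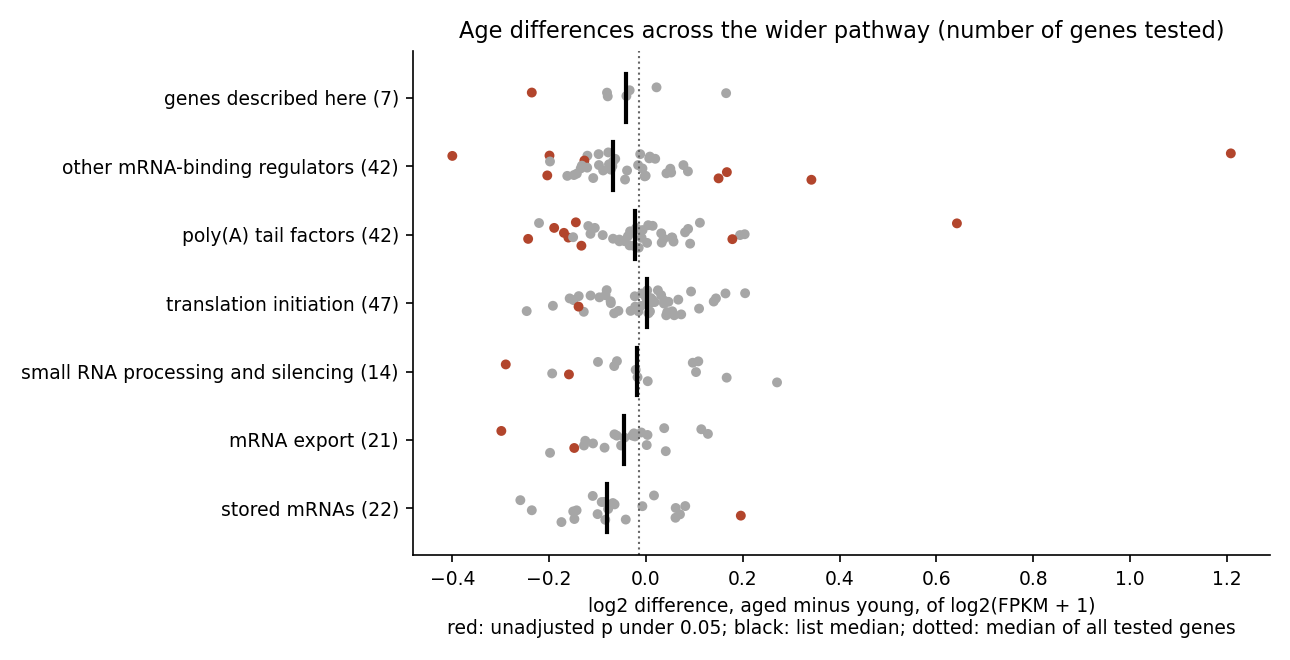
Log2 difference, aged minus young, of log2(FPKM + 1) for every tested gene (points, red where the unadjusted p was under 0.05) of the 7 genes and of 6 lists, with the list median as a black bar and the median of all tested genes as a dotted line. List medians lie between -0.08 and 0.003, and the points far to the right are Zfp36 and Btg2.

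Profiles over the 10 libraries were compared with those of 6423 candidate genes averaging 5 FPKM or more, by the root mean square difference of centred log2(FPKM + 1) values. The smallest of so many differences lies below their median by construction. Genes with little spread, such as Ybx2 and Pabpc1, also lie near other such genes by this measure. The nearest genes are therefore a description, and shared regulation was not tested. The nearest gene to Ybx2 was Egln2, with a difference of 0.02 against a median of 0.13 over the candidates, and the nearest to Pabpc1 was Arpc2, also with 0.02. Nsmce1 was nearest to Ddx25 (0.03), Yipf6 to Paip2 (0.04), Acad11 to Celf1 (0.06) and Rab36 to Tarbp2 (0.06). Paip2b had no close neighbour, as its nearest gene, Tmem258, differed by 0.18 against a median of 0.30. Paip2b was counted with only 42 to 106 fragments per library, and the part of counting noise in this was not tested.

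Boll encodes a DAZ-family RNA-binding protein that acts with or after DAZL in male germ cells. The files hold a gene described as boule-like, LOC100911373 (chromosome 9, 64480031 to 64573660, minus strand), whose name does not match Boll and which is therefore given beside the 7 genes and not as one of them. It was counted with 0 to 3 fragments in each of the aged libraries and with 141 fragments, 6.28 FPKM, in young replicate 1, against 0 or 1 fragment in the other 4 young libraries. Dazl averaged 8.84 ± 3.11 FPKM in aged and 9.97 ± 1.79 FPKM in young libraries (SD, n = 5 each; limma adjusted p = 0.666).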

How the data were processed

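Messenger RNA of round spermatids was sequenced in 5 aged and 5 young libraries, from 1.3 ug of total RNA each with a SMARTer kit, per the labels' protocols. The authors deposited FPKM values per gene, 1 file per library; HISAT2 2.0.5 and the counter featureCounts 1.5.0-p3 are listed in the submitters' processing notes, while no source used here gives settings, strand or build. Whole fragments were recovered from value, gene length and the smallest step of each library (100% whole within 0.001). The number by which the FPKM values had been scaled was 0.966 to 1.03 times the recovered fragments of a library. The median-of-ratios factor of the FPKM values was 1.0023 in every library, so by this measure they were already scaled alike.

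Groups were compared with limma 3.58.1 (R 4.3.3; eBayes with trend) on log2(FPKM + 1), over 12985 genes averaging 1 FPKM or more, two-sided, with Benjamini-Hochberg adjustment over all of them and a threshold of 0.05. Fold changes on this scale understate those of low genes. Single genes and ratios were also compared by exact permutation over 252 splits (scipy 1.17.1). The genes, lists and tests were chosen with earlier results of these data known. From each list the text names up to 6 genes, by smallest unadjusted p under 0.05; ratio partners and the gene nearest in profile are named too. Paralogs outside these, and the boule-like gene, were chosen after their values were seen. Positions and lengths are those of the files. On simulated data with 200 of 12876 genes changed 2-fold, the fit recovered 98% of them, with 12 false calls. The changed genes averaged 5 FPKM or more. Noise was drawn separately for each gene and library, without variation that genes of a library share. In the deposited data Vim, with a log2 difference of 1.19 and no overlap of groups, had a limma adjusted p of 0.319. The 98% is therefore no measure of the power behind the 0 genes that passed. The reported simulation covers 2-fold changes only. It cannot show how often the fit would find smaller differences, such as the log2 difference of -0.24 in Celf1. Alternatives covered the pseudocount, filters, scaling, voom, a replicate block and leaving out libraries. Same-numbered libraries did not deviate together, so the numbers were not taken as pairs.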

Additional observations from a re-analysis of the deposited data

Results flagged for a closer look

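None of the 7 genes had a library that stood apart from its group by Dixon's criterion (gap to the nearest library over the range of the 5, critical value 0.71) in 14 groups. Among 90 groups of the genes and ratios checked, 8 had one, where chance gives about 1 in 20, or 4.5 groups. The groups share the same 10 libraries, so this chance count is only rough. Marker genes given only in sums were not among the 90. Some of them passed the limit, such as Des and Vim with aged replicate 2 highest and Acrv1 with young replicate 1 lowest, and others did not.

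The boule-like LOC100911373 stood at 6.28 FPKM in young replicate 1 (others 0 to 0.0471). In aged replicate 2, Zfp36 stood at 38.6 FPKM (others 5.29 to 12.3) and Btg2 at 7.09 FPKM (others 1.17 to 2.44). Tnp1 was highest in aged replicate 1, at 6879 FPKM (others 4414 to 4995), and Sod1 in aged replicate 5, at 227 FPKM (others 178 to 192). Tsn was highest in young replicate 1, at 4.68 FPKM (others 3.13 to 3.32), and Cnot3 in young replicate 3, at 8.39 FPKM (others 6.31 to 6.89). Ybx1 was lowest in young replicate 5, at 767 FPKM (others 815 to 829).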

How the results depend on the processing

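No alternative brought any of the 7 genes past the threshold. Celf1 was lower under all 18 alternatives, with log2 differences of -0.27 to -0.20 and unadjusted p values of 0.00212 to 0.0169, and Paip2b was higher under all 18. Some alternatives could not change a direction. The filters and the replicate block leave the difference of a gene as it is, -0.236 for Celf1, and alter only its p. Median-of-ratios scaling changed almost nothing, because its factor was 1.0023 in every library. Without aged replicates 1 and 2 the differences of Ddx25 (0.0268), Tarbp2 (0.0325) and the Tarbp2 to Dicer1 ratio (0.109) changed sign. The count of genes past the threshold was 0 to 1 when leaving out each library; the 1 gene was SNORD14 without young replicate 1 (adjusted p = 0.000164) and AC117925.6 without young replicate 2 (adjusted p = 0.0277), neither among the 7 and both named after their values were seen. Leaving out each library moved Ybx2 between -0.00562 and 0.0409, the Paip2 to Pabpc1 ratio between -0.0888 and 0.0384, the Ybx2 to Ybx1 ratio between -0.0525 and 0.00734 and the median of the small RNA list between -0.0576 and 0.0140. With a filter at 5 FPKM that median was -0.0600 and 887 genes had an unadjusted p under 0.05, against 2379 with no filter, as the number of genes tested changed, and 939 without aged replicates 1 and 2. With the replicate block 1255 genes had an unadjusted p under 0.05, 0 passed, and Celf1 had p = 0.0169 (adjusted p = 0.500); same-numbered libraries correlated by -0.158 to 0.0541, so they share only a number. Ratios with Papolb and Boll were not run. Of the 7 genes, Paip2b (42 to 106 per library), Tarbp2 (171 to 243) and Celf1 (336 to 501) had the fewest fragments. The spread within groups on the log2 scale was widest for Paip2b and Tarbp2, whereas that of Celf1 was below that of Paip2.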
